A study of Arabidopsis thaliana with 12 samples.

Results

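The nuclear genes for the light-harvesting antenna, the subunits of both photosystems and the carriers that follow them were followed in *Arabidopsis* seedlings of 2 genotypes at 2 temperatures. The 51 members were chosen by gene identifier, out of 26891 genes in the table. They comprise 14 antenna genes of photosystem II (PSII; *LHCB1* to *LHCB6*), 6 antenna genes of photosystem I (PSI; *LHCA1* to *LHCA6*), 12 genes for PSI subunits, 10 for PSII subunits, and 9 for plastocyanin, the Rieske protein, ferredoxin, ferredoxin-NADP reductase (FNR) and ATP synthase subunits, here called the carriers. The seedlings were of the Columbia ecotype, either WT or the *cry1* mutant, for which the study lists the allele *cry1-304*. All of them, the controls included, had grown at 22°C in continuous light and then spent 1 day in blue light. The labels call them 8 days old, whereas the methods describe a shorter growth before the blue light. They were then either kept at 22°C or moved to 44°C in blue light, and all were sampled after 2 h. Each of the 4 groups had 3 libraries. They are described as independent biological replicates, of whole seedlings, so leaf, stem and root were mixed. Less RNA per cell and fewer green cells cannot be told apart in such samples.

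In the thylakoid membrane, light-harvesting chlorophyll-binding proteins collect light and pass its energy to the reaction centres. PSII draws electrons from water and passes them through plastoquinone, the cytochrome complex and plastocyanin to PSI, which reduces ferredoxin, and FNR then makes NADPH while ATP synthase uses the proton gradient. The reaction centre cores are encoded in the plastid, and most antenna and peripheral subunits in the nucleus. Nuclear photosynthesis genes are known as classic targets of light signalling, in which cryptochrome 1 is a blue-light receptor, and heat stress is known to impair PSII.

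Total counts per library were 10539271 to 14295796 in WT and 15228953 to 21752824 in *cry1*, so every *cry1* library was deeper than every WT library, and the part of this difference in the results was not tested. *CRY1* itself held 1774 to 2867 counts in the WT libraries, 2 to 5 in *cry1* at 22°C and 0 in each of the 3 *cry1* libraries at 44°C (a count of 0 allows up to 3 counts, for counting error only), so that each library matched its genotype label. Levels are given as CPM, counts per 1000000 counts of the library, in the order of replicates 1, 2 and 3. A log2 difference is given ± SE from edgeR's quasi-likelihood test, and a gene counts as called where its adjusted p (Benjamini-Hochberg, 21307 tested genes) lies below 0.05. All 51 members were expressed above the limit for testing. Beside this, 12 members had counts that were not whole (by more than 1e-06) in 6 or more libraries. Of all members, 6 share at least 20% of their exon bases with another annotated gene: *LHCB1.5*, *LHCB2.3*, *PSAE1*, *PSAG*, *PSAH1* and *PSAH2*. The sources used here do not say whether the counting used strand, so reads of those partners cannot be told apart from theirs.

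The members made up a large part of each library. Their summed share of all counts was 10.3, 10.1 and 10.2% in the WT libraries at 22°C and 6.15, 7.10 and 6.95% in *cry1* at 22°C. At 44°C it was 6.13, 6.86 and 6.57% in WT and 4.96, 5.30 and 5.49% in *cry1*. No group overlapped with WT at 22°C, which was the highest, whereas WT at 44°C overlapped with *cry1* at 22°C. The log2 ratio of the summed levels between 44°C and 22°C was -0.64 in WT and -0.36 in *cry1*, but it turned to 0.17 and 0.84 under median-ratio scaling, which sets the median gene to no change. The 20 antenna genes alone took 5.54% ± 0.114 (SD, n = 3) in WT at 22°C, 3.63% ± 0.433 in *cry1* at 22°C, 4.44% ± 0.264 in WT at 44°C and 3.58% ± 0.266 in *cry1* at 44°C. In *cry1*, the antenna share at 44°C (3.29, 3.64 and 3.81%) thus lay within the replicate spread of that at 22°C (3.13, 3.93 and 3.83%). This overlap rested on replicate 1 at 22°C, since replicates 2 and 3 lay above every library at 44°C. The shares of the PSI subunits, the PSII subunits and the carriers in *cry1* did not overlap between the temperatures. Within the summed member counts, the antenna took 54.4% ± 0.524 in WT and 53.8% ± 2.48 in *cry1* at 22°C, against 68.1% ± 0.667 and 68.1% ± 1.58 at 44°C. The carriers went the other way, from 10.6% ± 0.316 to 4.68% ± 0.0991 in WT and from 11.3% ± 0.935 to 4.72% ± 0.298 in *cry1*. These shares within the members do not depend on how libraries are scaled.

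**Figure D1:**
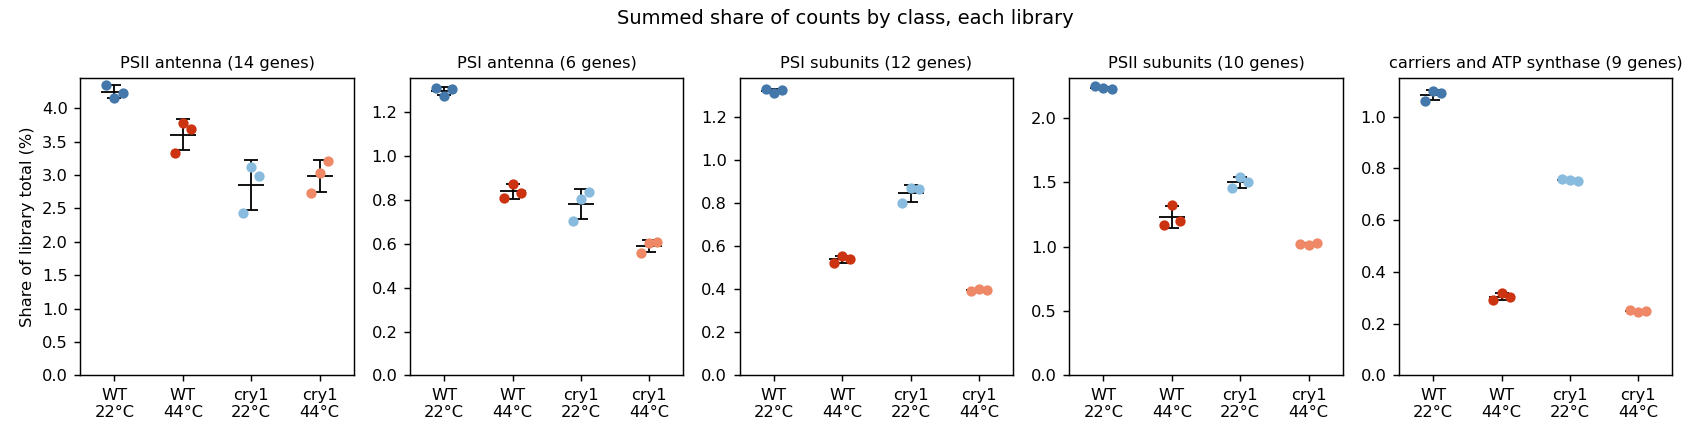
Share of all counts of a library (y axis, percent, from 0) taken by each class of genes, with 1 point per library and the mean ± SD of 3 libraries as bars. All 5 classes stood lower in *cry1* than in WT at 22°C; the carriers fell furthest between the temperatures, from 1.08% to 0.304% in WT.

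Per kilobase of exon, the levels of the members spanned a wide range. In WT at 22°C, *LHCB1.3* stood highest at 11220 ± 383 FPKM (CPM per kilobase of exon, SD, n = 3), followed by *PSBR*, which encodes a small PSII protein, at 8928 ± 166 and *LHCB1.5* at 5270 ± 109. The lowest FPKM were those of *LHCB4.3*, *LHCA6* and *PETE1*. *LHCB1.3* kept the highest FPKM in all 4 groups. Across the 51 members, Spearman's rho between the log2 FPKM in WT at 22°C and the log2 heat difference was 0.31 in WT and 0.36 in *cry1*, which is a description over genes measured in the same libraries.

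The first question was how the loss of cryptochrome 1 affected these genes in blue light at 22°C. All 51 members stood lower in *cry1* than in WT, and 50 of them were called lower and 0 higher. Over all tested genes, 7.35% were called lower and 31.6% higher. The median log2 difference was -0.58 over the members and 0.26 over all tested genes. Among the classes, the median was -0.63 in the PSII antenna, -0.64 in the PSI antenna, -0.64 in the PSI subunits, -0.55 in the PSII subunits and -0.52 in the carriers, so the classes lay close together. Only 3 members, *LHCB1.1*, *LHCB2.1* and *LHCB2.3*, were lower by 2-fold or more, as were 1.32% of all genes. *LHCB1.4* was not called (log2 -0.36 ± 0.22, adjusted p = 0.217), but passed without *cry1* replicate 2 at 22°C (adjusted p = 0.0478). The count called lower was 50 under all 3 other scalings and with DESeq2.

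At 44°C, 37 members were called lower in *cry1* than in WT, 2 higher (*PSBO2* and *FD1*), and 12 were not called, against 17.3% lower and 8.64% higher of all tested genes. The median was -0.44 over the members and -0.11 over all genes. By class, 7 of 14 PSII antenna genes, 5 of 6 PSI antenna genes, 11 of 12 PSI genes, 6 of 10 PSII genes and 8 of 9 carriers were called lower. Under median-ratio scaling 29 members were called lower and 2 higher, beside 10.9% and 13.9% of all genes.

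**Figure D2:**
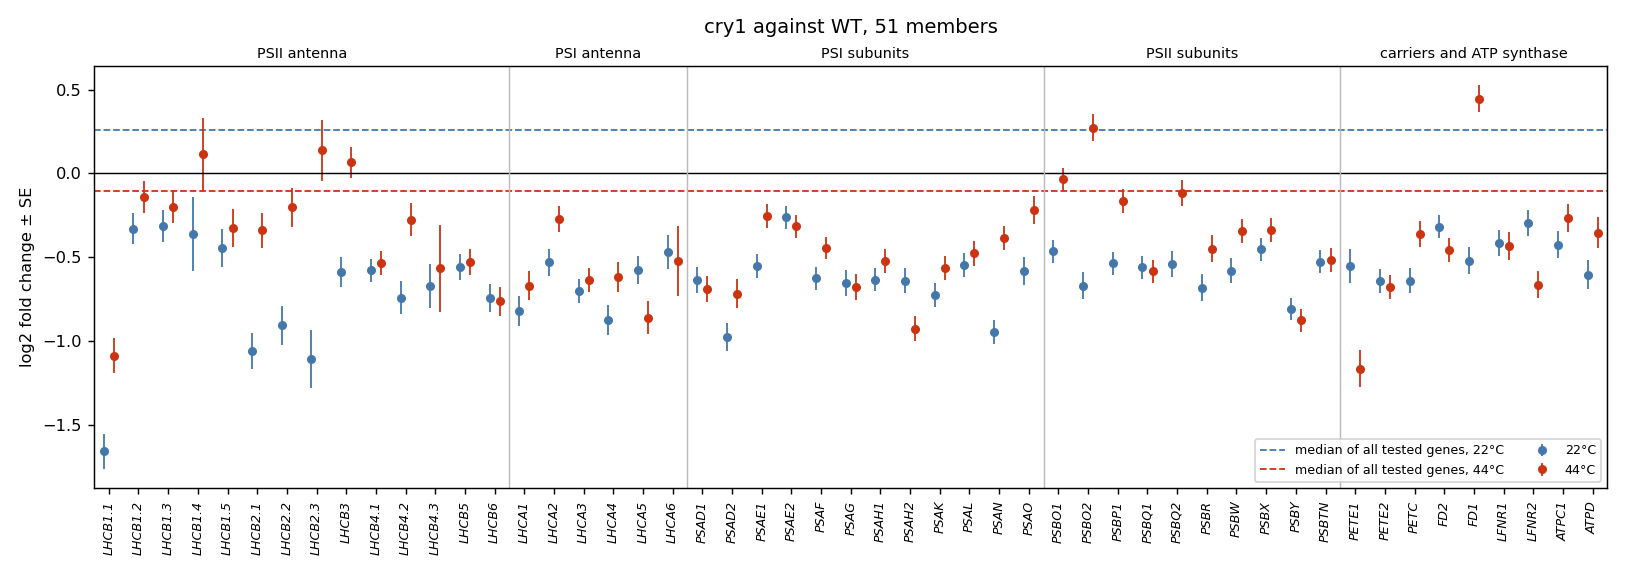
Log2 difference of *cry1* against WT (y axis) for each of the 51 members, grouped by class, at 22°C (blue) and 44°C (red), with SE as bars and dashed lines at the median of all tested genes (0.26 and -0.11). All 51 points at 22°C lie below 0, with *LHCB1.1* lowest at -1.66; at 44°C *FD1* and *PSBO2* were called above 0.

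The second question was how 2 h at 44°C affected them in each genotype. On the scale of library totals, 44 members fell in WT, 5 rose (*LHCB1.3*, *LHCB1.4*, *LHCB1.5*, *PSAE2* and *FD1*) and 2 were not called. This has to be read against the background, since 61.1% of all tested genes were called lower and 15.3% higher, with a median of -0.86 over all genes and -1.48 over the members. In *cry1*, 41 members fell, 5 rose (*LHCB1.3*, *LHCB1.4*, *LHCB1.5*, *LHCB4.2* and *FD1*) and 5 were not called, beside 72.9% and 11.3% of all genes, and the median was -1.24 over all genes and -1.31 over the members. The median of the members thus lay below that of all genes by less in *cry1* than in WT. With median-ratio scaling, 35 members fell and 13 rose in WT (all genes: 35.6% and 34.4%), and 22 fell and 22 rose in *cry1* (all genes: 36.4% and 35.2%). The heat differences below are on the scale of library totals, and the members whose direction turned under median-ratio scaling are named in each class.

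**Figure D3:**
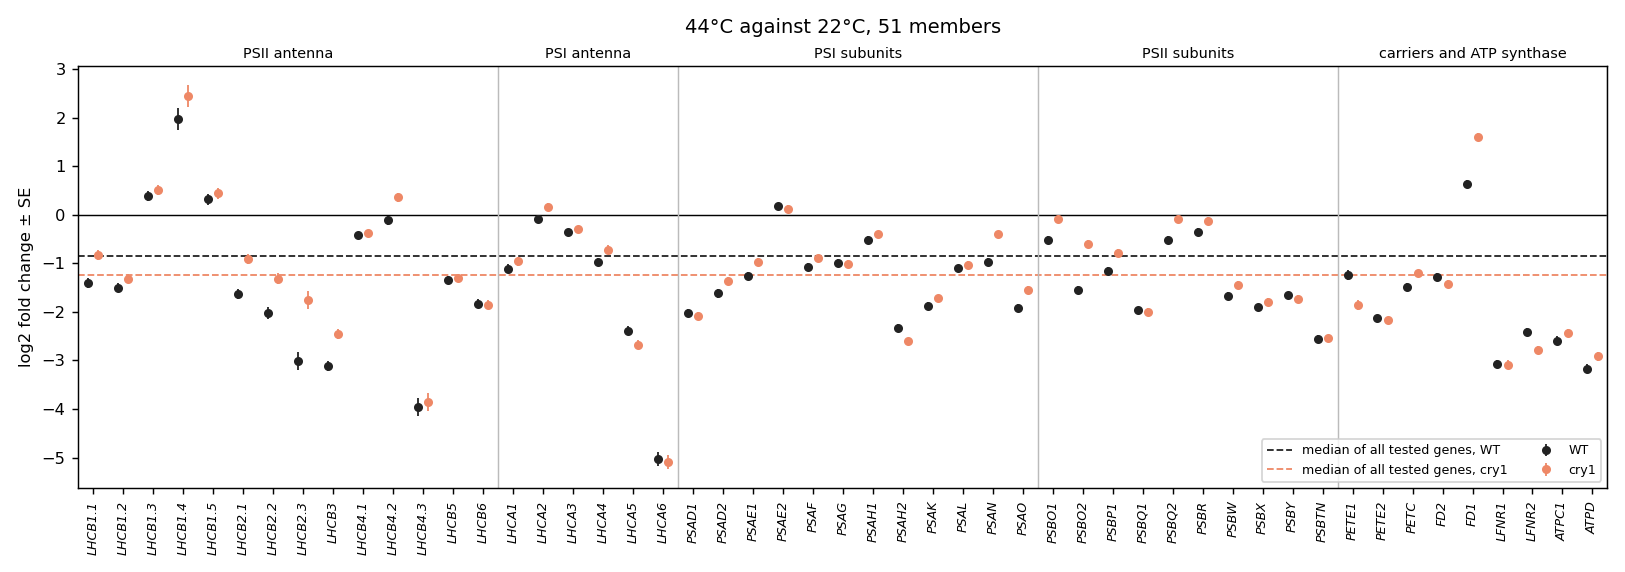
Log2 difference of 44°C against 22°C (y axis, library totals as scale) for each of the 51 members, grouped by class, in WT (black) and *cry1* (orange), with SE as bars and dashed lines at the median of all tested genes (-0.86 in WT and -1.24 in *cry1*). *LHCB1.4* lies highest and *LHCA6* lowest in both genotypes, at -5.03 in WT and -5.09 in *cry1*.

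The third question was whether the heat response differed between the genotypes, tested as the log2 heat difference in *cry1* minus that in WT. It differed in 17 members, 14 of them higher in *cry1* and 3 lower, whereas 3.88% of all tested genes were called higher and 24.2% lower. The median was 0.16 over the members and -0.33 over all genes, and 49 members lay above the latter. With median-ratio scaling 40 were higher and 0 lower, beside 11.5% and 5.35% of all genes. These differences use the same 12 libraries as the comparisons above and are not separate evidence. On the scale of library totals, 6 of the PSII antenna genes were called higher (*LHCB1.1*, *LHCB2.1*, *LHCB2.2*, *LHCB2.3*, *LHCB3* and *LHCB4.2*) and 0 of the 6 *LHCA* genes. Under median-ratio scaling *LHCA3* rose with heat in both genotypes, and more in *cry1*, so this contrast of the antennae is given for library totals only.

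The 5 *LHCB1* genes encode the most abundant protein of the trimeric PSII antenna. They are near copies: over 798 to 804 aligned coding bases, *LHCB1.1* was 95.7% identical to *LHCB1.2* and 96.1% to *LHCB1.3*, both beside it on chromosome 1, against 87.0% to *LHCB1.4* and 90.2% to *LHCB1.5* on chromosome 2. The same 60-base stretch of each coding sequence is shown because reads could be assigned to a copy only through bases such as those in capitals, the 15 positions at which the 5 genes differ (RefSeq annotation, TAIR10.1, 5′ to 3′ on the coding strand).
LHCB1.1 (chr1:10475626-10475685, minus strand): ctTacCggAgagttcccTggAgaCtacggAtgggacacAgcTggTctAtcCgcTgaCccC
LHCB1.2 (chr1:10472980-10473039, minus strand): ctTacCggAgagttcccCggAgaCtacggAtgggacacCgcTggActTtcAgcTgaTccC
LHCB1.3 (chr1:10478278-10478337, plus strand): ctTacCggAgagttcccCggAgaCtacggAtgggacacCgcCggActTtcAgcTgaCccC
LHCB1.4 (chr2:14525022-14525081, plus strand): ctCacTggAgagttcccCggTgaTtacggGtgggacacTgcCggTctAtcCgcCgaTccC
LHCB1.5 (chr2:14523253-14523312, minus strand): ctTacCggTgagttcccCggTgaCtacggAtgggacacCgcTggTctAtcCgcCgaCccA
The longest run without a difference was 116 bases between *LHCB1.1* and *LHCB1.2* and 119 bases between *LHCB1.1* and *LHCB1.3*, so the division of counts among these copies is uncertain, and their sum is the firmer value.

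The *LHCB1* genes moved apart from each other. *LHCB1.1* (AT1G29920) stood at 4081, 4169 and 3983 CPM in WT and 1106, 1346 and 1424 in *cry1* at 22°C, and at 1510, 1801 and 1302 in WT and 732, 729 and 711 in *cry1* at 44°C. Its groups did not overlap in any of the 4 comparisons, and *cry1* at 22°C overlapped with WT at 44°C. The log2 difference of *cry1* against WT was -1.66 ± 0.10 at 22°C (adjusted p = 1.92e-09), the lowest of all members, and -1.09 ± 0.10 at 44°C. Its fall with heat was -1.41 ± 0.10 in WT and -0.84 ± 0.10 in *cry1*, where it turned upward under median-ratio scaling. *LHCB1.2* (AT1G29910) stood at 1931, 1936 and 1907 CPM in WT and 1336, 1628 and 1632 in *cry1* at 22°C, and at 661, 776 and 600 in WT and 583, 635 and 629 in *cry1* at 44°C. This gene was lower in *cry1* at 22°C (-0.33 ± 0.09) and not called at 44°C (-0.14 ± 0.09, adjusted p = 0.293), and it fell with heat in both genotypes.

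The other 3 copies rose with heat. *LHCB1.3* (AT1G29930) stood at 14344, 13545 and 13513 CPM in WT and 9264, 12913 and 11108 in *cry1* at 22°C, and at 16806, 18668 and 18708 in WT and 14717, 15679 and 16828 in *cry1* at 44°C. WT and *cry1* overlapped at 44°C, while at 22°C *cry1* was lower throughout, with replicate 1 lowest. The rise with heat was 0.39 ± 0.10 in WT and 0.50 ± 0.10 in *cry1*, and the difference of *cry1* against WT at 22°C, -0.31 ± 0.10, lost its call without WT replicate 1 at 22°C (adjusted p = 0.0632) or *cry1* replicate 1 at 22°C (adjusted p = 0.0755). *LHCB1.4* (AT2G34430) stood at 602, 482 and 555 CPM in WT and 303, 545 and 428 in *cry1* at 22°C, and at 1809, 2096 and 2515 in WT and 1914, 2293 and 2738 in *cry1* at 44°C. Every library at 44°C was above every library at 22°C, and the rise of 1.97 ± 0.23 in WT and 2.44 ± 0.23 in *cry1* was the largest of all members. *LHCB1.5* (AT2G34420) stood at 5429, 5638 and 5455 CPM in WT and 3323, 4440 and 4375 in *cry1* at 22°C, and at 6049, 7349 and 7254 in WT and 4695, 5802 and 5981 in *cry1* at 44°C. It rose by 0.32 ± 0.11 in WT and 0.44 ± 0.11 in *cry1*, but the call in WT was lost without WT replicate 2 at 44°C (adjusted p = 0.0640) or replicate 3 at 44°C (adjusted p = 0.0567). *LHCB1.5* lies wholly within an antisense noncoding gene, whose own mean level was 8.92 CPM in WT at 22°C and 19.3 at 44°C. *LHCB1.5* was lower in *cry1* at 22°C (-0.44 ± 0.11), and its call at 44°C (-0.33 ± 0.11) was lost without WT replicates 2 (adjusted p = 0.135) or 3 (0.124) or *cry1* replicates 1 (0.174) or 2 (0.0593).

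The makeup of the *LHCB1* sum shifted accordingly. *LHCB1.1* took 15.8% ± 0.366 (SD, n = 3) of it in WT at 22°C, 7.06% ± 0.546 in *cry1* at 22°C, 5.26% ± 0.853 in WT at 44°C and 2.92% ± 0.296 in *cry1* at 44°C. *LHCB1.3* took 53.4% ± 0.915, 60.3% ± 1.65, 61.7% ± 0.904 and 63.3% ± 1.46 in the same order. The sum itself was 2.59% ± 0.0493 of all counts in WT and 1.84% ± 0.281 in *cry1* at 22°C, and 2.93% ± 0.214 and 2.49% ± 0.213 at 44°C. In each genotype, the sum of every library at 44°C lay above that of every library at 22°C.

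**Figure D4:**
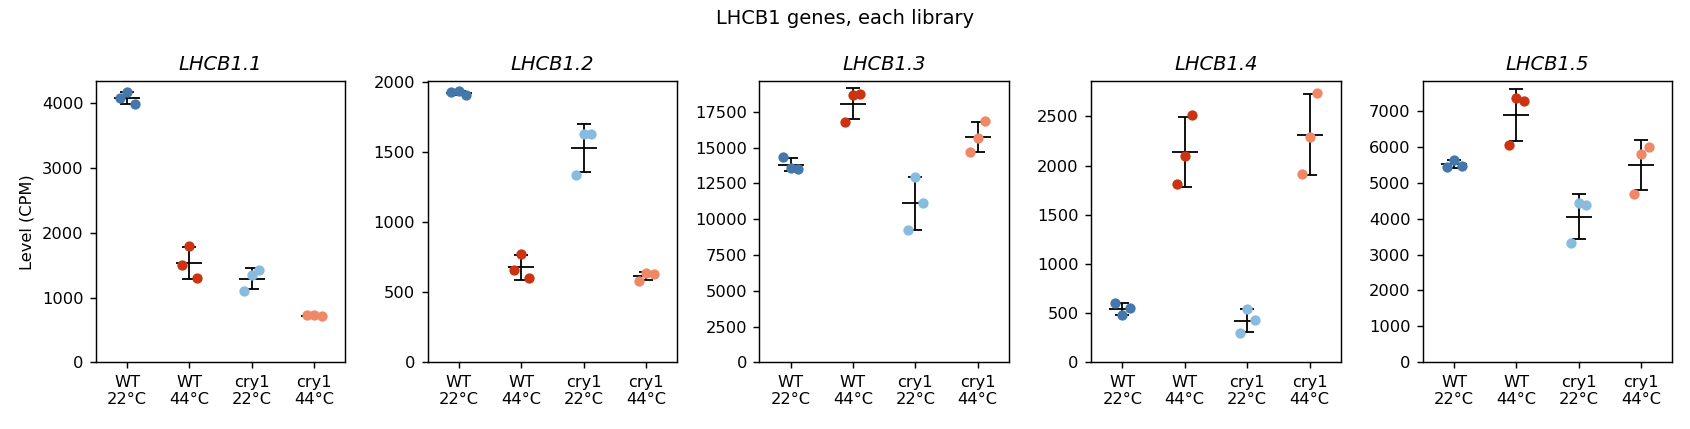
Level of each *LHCB1* gene (y axis, CPM, from 0 and on its own scale in each panel) in the 4 groups, with 1 point per library and the mean ± SD of 3 libraries as bars. *LHCB1.1* and *LHCB1.2* stood lower at 44°C and *LHCB1.4* higher; *LHCB1.1* shows the widest gap between WT and *cry1* at 22°C.

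The *LHCB2* proteins are part of the mobile antenna that is phosphorylated in state transitions, and *LHCB3* encodes a further trimer subunit. *LHCB2.1* (AT2G05100) stood at 2581, 2406 and 2543 CPM in WT and 1034, 1230 and 1348 in *cry1* at 22°C, and at 760, 957 and 712 in WT and 602, 663 and 656 in *cry1* at 44°C. *LHCB2.2* (AT2G05070) stood at 1413, 1217 and 1337 CPM in WT and 599, 730 and 786 in *cry1* at 22°C, and at 286, 383 and 306 in WT and 254, 313 and 280 in *cry1* at 44°C. *LHCB2.3* (AT3G27690) stood at 475, 408 and 533 CPM in WT and 166, 232 and 261 in *cry1* at 22°C, and at 61.9, 66.5 and 48.1 in WT and 62.7, 72.6 and 59.0 in *cry1* at 44°C. In all 3 genes the *cry1* libraries at 22°C lay well below WT, and at 44°C the genotypes overlapped in *LHCB2.2* and *LHCB2.3*. The log2 difference of *cry1* against WT at 22°C was -1.06 ± 0.10, -0.91 ± 0.12 and -1.11 ± 0.17 in this order (adjusted p at most 5.78e-04). At 44°C, *LHCB2.1* was still lower (-0.34 ± 0.10, adjusted p = 0.0207; 0.143 without WT replicate 2 and 0.0854 without *cry1* replicate 1), and *LHCB2.2* and *LHCB2.3* were not called.

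*LHCB3* (AT5G54270) stood at 2255, 2096 and 2224 CPM in WT and 1260, 1520 and 1592 in *cry1* at 22°C, and at 232, 282 and 245 in WT and 247, 283 and 265 in *cry1* at 44°C. Every library at 44°C lay far below those at 22°C, and WT and *cry1* overlapped at 44°C. The heat fall in WT was -1.63 ± 0.11 for *LHCB2.1*, -2.02 ± 0.12 for *LHCB2.2*, -3.00 ± 0.19 for *LHCB2.3* and -3.11 ± 0.10 for *LHCB3*. In *cry1* it was -0.91 ± 0.10, -1.32 ± 0.12, -1.76 ± 0.18 and -2.46 ± 0.10, with *LHCB2.1* turning upward under median-ratio scaling. The fall was smaller in *cry1* for all 4 genes, with log2 differences between the responses of 0.72 ± 0.15 (adjusted p = 0.00130), 0.70 ± 0.16 (0.00433), 1.24 ± 0.25 (0.00375) and 0.66 ± 0.13 (9.58e-04). *LHCB2.3* shares 40.6% of its exon bases with a neighbouring gene. That gene stood at a mean of 32.9 CPM in WT and 38.0 in *cry1* at 22°C, and at 16.4 and 14.6 at 44°C. It was thus larger beside *LHCB2.3* at 44°C, where the means of *LHCB2.3* were 58.8 CPM in WT and 64.8 in *cry1*.

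The minor antenna proteins *LHCB4*, *LHCB5* and *LHCB6* bridge the trimers and the PSII core. *LHCB4.1* (AT5G01530) stood at 2517, 2418 and 2387 CPM in WT and 1586, 1632 and 1686 in *cry1* at 22°C, and at 1791, 1832 and 1854 in WT and 1199, 1268 and 1313 in *cry1* at 44°C. *LHCB4.2* (AT3G08940) stood at 1417, 1209 and 1433 CPM in WT and 674, 859 and 895 in *cry1* at 22°C, and at 1260, 1265 and 1242 in WT and 950, 1108 and 1054 in *cry1* at 44°C. The heat difference of *LHCB4.1* was -0.42 ± 0.07 in WT and -0.38 ± 0.07 in *cry1*, both called, whereas *LHCB4.2* was not called in WT (-0.11 ± 0.10, adjusted p = 0.318) and rose in *cry1* (0.36 ± 0.10). Under median-ratio scaling the heat differences of *LHCB4.1* in both genotypes and that of *LHCB4.2* in WT turned upward. The responses of *LHCB4.2* differed by 0.47 ± 0.14 (adjusted p = 0.0148). Both genes were lower in *cry1* at 22°C (-0.58 ± 0.07 and -0.74 ± 0.10). At 44°C the call for *LHCB4.2* (-0.28 ± 0.10, adjusted p = 0.0399) was lost without any single WT library at that temperature (adjusted p = 0.0967, 0.0839 and 0.0749) or without *cry1* replicate 1 (0.165) or 3 (0.0817).

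*LHCB4.3* (AT2G40100) stood at 36.1, 38.8 and 38.7 CPM in WT and 28.5, 19.8 and 22.7 in *cry1* at 22°C, and at 2.94, 1.84 and 2.52 in WT and 2.04, 1.57 and 1.25 in *cry1* at 44°C. It was the lowest of the PSII antenna genes per kilobase and fell furthest among them, to a log2 difference of -3.96 ± 0.18 in WT and -3.86 ± 0.18 in *cry1*. *LHCB5* fell from a mean of 3767 to 1492 CPM in WT and from 2562 to 1036 in *cry1*. *LHCB6* (AT1G15820) stood at 2591, 2348 and 2508 CPM in WT and 1292, 1520 and 1631 in *cry1* at 22°C, and at 690, 740 and 660 in WT and 394, 413 and 424 in *cry1* at 44°C. On the scale of library totals, *LHCB6* differed between genotypes by nearly the same amount at both temperatures, with a log2 difference of -0.75 ± 0.08 at 22°C and -0.76 ± 0.09 at 44°C. Under median-ratio scaling its heat response was called higher in *cry1*, so its gap to WT was then smaller at 44°C.

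*LHCA1* to *LHCA4* encode the belt of antenna proteins on PSI, and *LHCA5* and *LHCA6* are known for linking PSI to the NDH complex of cyclic electron flow. *LHCA4* (AT3G47470) stood at 4100, 3937 and 3997 CPM in WT and 1956, 2243 and 2368 in *cry1* at 22°C, and at 1956, 2278 and 1886 in WT and 1226, 1400 and 1362 in *cry1* at 44°C. The groups did not overlap in any comparison, and its difference of -0.87 ± 0.09 in *cry1* at 22°C was the furthest below 0 among these 6 genes. *LHCA2* (AT3G61470) stood at 2951, 2867 and 3024 CPM in WT and 1849, 2077 and 2192 in *cry1* at 22°C, and at 2635, 2754 and 2881 in WT and 2108, 2367 and 2378 in *cry1* at 44°C. On the scale of library totals, heat made the smallest difference in *LHCA2* among these 6 genes. It was not called in WT (-0.10 ± 0.08, adjusted p = 0.275) nor in *cry1* (0.16 ± 0.08, adjusted p = 0.0613). The adjusted p in *cry1* was 0.0254 without *cry1* replicate 3 at 22°C and 0.0265 without replicate 1 at 44°C. This order depends on the scale, since under median-ratio scaling *LHCA3* rose less in WT than *LHCA2*, which turned upward. Its difference between genotypes was -0.53 ± 0.08 at 22°C and -0.27 ± 0.08 at 44°C, and the latter was lost without WT replicate 3 (adjusted p = 0.0586) or *cry1* replicate 1 (adjusted p = 0.0818). *LHCA1* and *LHCA3* were called lower in *cry1* at both temperatures, with log2 differences of -0.82 ± 0.09 and -0.70 ± 0.07 at 22°C and -0.67 ± 0.09 and -0.64 ± 0.07 at 44°C.

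The pair known for the link to NDH fell furthest of the *LHCA* genes with heat. In *cry1*, *LHCA1*, *LHCA3* and *LHCA4* also fell and turned upward under median-ratio scaling, as did *LHCA3* in WT. *LHCA5* (AT1G45474) stood at 175, 168 and 169 CPM in WT and 120, 114 and 109 in *cry1* at 22°C, and at 27.2, 34.3 and 36.1 in WT and 19.4, 17.2 and 17.1 in *cry1* at 44°C. *LHCA6* (AT1G19150) stood at 113, 126 and 139 CPM in WT and 90.1, 88.5 and 94.9 in *cry1* at 22°C, and at 3.13, 4.85 and 3.46 in WT and 3.41, 2.68 and 1.90 in *cry1* at 44°C. Each library at 44°C was below each at 22°C in both genes. The heat difference of *LHCA6*, -5.03 ± 0.15 in WT and -5.09 ± 0.15 in *cry1*, was the lowest of all 51 members, and that of *LHCA5* was -2.39 ± 0.09 and -2.68 ± 0.10. *LHCA5* was lower in *cry1* at both temperatures (-0.58 ± 0.08 and -0.86 ± 0.10). *LHCA6* was lower at 22°C (-0.47 ± 0.10) and not called at 44°C (-0.52 ± 0.21, adjusted p = 0.0738), where few counts remained, and it passed without *cry1* replicate 1 at 44°C (adjusted p = 0.0207).

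Among the 12 PSI subunit genes, 12 were called lower in *cry1* at 22°C and 11 at 44°C, and 11 fell with heat in each genotype. Of all tested genes, 7.35% were called lower in *cry1* at 22°C and 17.3% at 44°C, and 61.1% fell with heat in WT and 72.9% in *cry1*. Under median-ratio scaling the heat difference turned upward for *PSAH1* in both genotypes and for *PSAE1*, *PSAF*, *PSAG*, *PSAL* and *PSAN* in *cry1*. *PSAD* and *PSAE* encode stromal subunits at which ferredoxin docks. *PSAD1* (AT4G02770) stood at 1036, 1011 and 1068 CPM in WT and 618, 693 and 693 in *cry1* at 22°C, and at 235, 273 and 258 in WT and 162, 161 and 151 in *cry1* at 44°C. *PSAD2* (AT1G03130) stood at 529, 480 and 567 CPM in WT and 235, 280 and 287 in *cry1* at 22°C, and at 163, 170 and 180 in WT and 99.8, 109 and 103 in *cry1* at 44°C. *PSAD2* had the strongest difference of the class in *cry1* at 22°C (-0.98 ± 0.08, against -0.64 ± 0.08 for *PSAD1*), and its groups did not overlap in any comparison. *PSAE1* (AT4G28750) stood at 1643, 1561 and 1626 CPM in WT and 1030, 1157 and 1109 in *cry1* at 22°C, and at 623, 694 and 694 in WT and 556, 571 and 561 in *cry1* at 44°C. *PSAE2* (AT2G20260) stood at 424, 442 and 471 CPM in WT and 353, 390 and 373 in *cry1* at 22°C, and at 499, 507 and 506 in WT and 406, 396 and 413 in *cry1* at 44°C. Whereas *PSAE1* was lower in every heated library, *PSAE2* stood higher at 44°C in each genotype by a small amount. The rise of *PSAE2* was 0.18 ± 0.07 in WT (adjusted p = 0.0267) and not called in *cry1* (0.12 ± 0.07, adjusted p = 0.106). The call in WT was lost without WT replicate 1 (adjusted p = 0.116) or 2 (0.0605) at 22°C or replicate 3 at 44°C (0.0527). The smaller heat fall of *PSAE1* in *cry1* (difference of responses 0.30 ± 0.10, adjusted p = 0.0360) was lost without 8 of the 12 libraries in turn, at adjusted p of 0.0509 to 0.102.

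*PSAH*, *PSAL* and *PSAO* encode subunits near the docking site of the mobile antenna, and *PSAN* a lumenal subunit. *PSAH2* (AT1G52230) stood at 701, 712 and 729 CPM in WT and 435, 462 and 479 in *cry1* at 22°C, and at 135, 154 and 139 in WT and 73.1, 74.6 and 77.8 in *cry1* at 44°C. *PSAH1* (AT3G16140) stood at 413, 463 and 436 CPM in WT and 273, 282 and 290 in *cry1* at 22°C, and at 305, 310 and 305 in WT and 220, 208 and 213 in *cry1* at 44°C. *PSAH2* fell furthest of the class with heat, to -2.32 ± 0.08 in WT and -2.61 ± 0.08 in *cry1*, and had the lowest difference of *cry1* against WT at 44°C (-0.93 ± 0.08). The difference between the responses of *PSAH2* (-0.29 ± 0.10, adjusted p = 0.0449) was lost without 9 of the 12 libraries in turn (adjusted p of 0.0544 to 0.104) and turned upward under median-ratio scaling. *PSAN* (AT5G64040) stood at 1397, 1247 and 1336 CPM in WT and 682, 689 and 697 in *cry1* at 22°C, and at 656, 705 and 679 in WT and 538, 508 and 518 in *cry1* at 44°C. *PSAO* (AT1G08380) stood at 1713, 1672 and 1649 CPM in WT and 1051, 1188 and 1125 in *cry1* at 22°C, and at 413, 497 and 422 in WT and 356, 406 and 383 in *cry1* at 44°C. In both genes the gap between genotypes was wider at 22°C, where the difference was -0.94 ± 0.07 for *PSAN* and -0.58 ± 0.08 for *PSAO*, than at 44°C, where it was -0.38 ± 0.07 and -0.22 ± 0.08. The latter was not called (adjusted p = 0.0579), except without WT replicate 1 at 44°C (0.0454). The difference between the responses was 0.56 ± 0.10 for *PSAN* (adjusted p = 3.43e-04) and 0.36 ± 0.12 for *PSAO* (0.0238), and that of *PSAO* was lost without WT replicate 1 at 22°C (0.0550), WT replicate 1 (0.0729) or 3 (0.0558) at 44°C, *cry1* replicate 1 at 22°C (0.0510) or *cry1* replicate 2 at 44°C (0.0666).

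The remaining PSI genes behaved alike in the genotype comparisons. *PSAF*, whose product docks plastocyanin, *PSAG* and *PSAK* at the antenna side, and *PSAL* were called lower in *cry1* at both temperatures, with log2 differences of -0.55 to -0.72 at 22°C and -0.44 to -0.68 at 44°C. Their levels in WT at 22°C ran from 625 ± 18.7 CPM for *PSAG* to 1859 ± 31.3 for *PSAK*.

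Of the 10 PSII subunit genes, 10 were called lower in *cry1* at 22°C, and at 44°C 6 were lower, 1 higher and 3 not called. The shares of all tested genes were 7.35% lower at 22°C, and 17.3% lower and 8.64% higher at 44°C. With heat, 10 fell in WT and 7 in *cry1*, beside 61.1% and 72.9% of all tested genes, so the share in *cry1* was near that of all genes. Under median-ratio scaling *PSBO1*, *PSBQ2* and *PSBR* turned upward in both genotypes and *PSBO2* and *PSBP1* in *cry1*. *PSBO*, *PSBP* and *PSBQ* encode the extrinsic proteins of the oxygen-evolving complex. *PSBO1* (AT5G66570) stood at 3733, 3938 and 3723 CPM in WT and 2654, 2774 and 2826 in *cry1* at 22°C, and at 2664, 2717 and 2600 in WT and 2657, 2553 and 2583 in *cry1* at 44°C. *PSBO2* (AT3G50820) stood at 1211, 1244 and 1197 CPM in WT and 790, 745 and 760 in *cry1* at 22°C, and at 401, 474 and 370 in WT and 497, 519 and 489 in *cry1* at 44°C. In *PSBO1* the genotypes overlapped at 44°C, and *PSBO2* was higher in each *cry1* library than in each WT library at 44°C, the reverse of 22°C. The difference of *PSBO2* was -0.67 ± 0.08 at 22°C and 0.27 ± 0.08 at 44°C (adjusted p = 0.0170), and the call at 44°C was lost without WT replicate 1 (adjusted p = 0.0693) or 3 (0.102) or *cry1* replicate 2 (0.0682) at 44°C. The responses to heat differed by 0.94 ± 0.12 in *PSBO2* (adjusted p = 8.85e-06) and 0.43 ± 0.10 in *PSBO1* (0.00253). *PSBO1* fell to a log2 difference of -0.51 ± 0.07 in WT and was not called in *cry1* (-0.08 ± 0.07, adjusted p = 0.265).

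*PSBQ1* (AT4G21280) stood at 1021, 1009 and 1028 CPM in WT and 676, 689 and 711 in *cry1* at 22°C, and at 247, 272 and 261 in WT and 169, 174 and 177 in *cry1* at 44°C. *PSBQ2* (AT4G05180) stood at 1140, 1116 and 1123 CPM in WT and 721, 801 and 798 in *cry1* at 22°C, and at 737, 833 and 798 in WT and 684, 786 and 715 in *cry1* at 44°C. Every heated library of *PSBQ1* lay far below the unheated ones, whereas in *PSBQ2* the heated and unheated *cry1* libraries overlapped. *PSBQ1* fell to log2 differences of -1.97 ± 0.07 in WT and -2.00 ± 0.07 in *cry1*, but under median-ratio scaling its response was called higher in *cry1*. *PSBQ2* fell to -0.51 ± 0.08 in WT and was not called in *cry1* (-0.09 ± 0.08, adjusted p = 0.298). The difference between the responses was 0.43 ± 0.11 for *PSBQ2* (adjusted p = 0.00611) and 0.37 ± 0.10 for *PSBP1* (0.00889), whose level fell from 2864 to 1284 CPM in WT. *PSBR* (AT1G79040) stood at 7113, 6858 and 7028 CPM in WT and 4331, 4616 and 4142 in *cry1* at 22°C, and at 4969, 6154 and 5262 in WT and 3952, 3976 and 4070 in *cry1* at 44°C. *PSBR*, the most abundant PSII subunit transcript per length, had the smallest heat difference of the PSII subunit genes in WT on library totals (-0.36 ± 0.08). Under median-ratio scaling it rose by 0.46, more than *PSBO1* and *PSBQ2*, each at 0.30.

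Among the small PSII subunits, *PSBTN*, *PSBY* and *PSBX* fell with heat in each genotype. *PSBTN* (AT3G21055) stood at 867, 913 and 919 CPM in WT and 604, 656 and 615 in *cry1* at 22°C, and at 145, 157 and 156 in WT and 106, 112 and 103 in *cry1* at 44°C. *PSBY* (AT1G67740) stood at 446, 467 and 442 CPM in WT and 256, 251 and 267 in *cry1* at 22°C, and at 141, 147 and 141 in WT and 77.5, 78.0 and 78.1 in *cry1* at 44°C. *PSBX* (AT2G06520) stood at 2030, 2046 and 2119 CPM in WT and 1415, 1590 and 1520 in *cry1* at 22°C, and at 529, 569 and 553 in WT and 443, 424 and 440 in *cry1* at 44°C. *PSBTN* had the largest heat fall of the class, to a log2 difference of -2.56 ± 0.08 in WT and -2.55 ± 0.08 in *cry1*. *PSBY* had the lowest genotype differences, -0.81 ± 0.07 at 22°C and -0.88 ± 0.07 at 44°C on library totals. Under median-ratio scaling the heat response of *PSBY* was called higher in *cry1*, so its gap to WT was then smaller at 44°C. *PSBX* was the PSII gene with the smallest difference at 22°C (-0.45 ± 0.07), and *PSBW* was called lower in *cry1* at both temperatures (-0.58 ± 0.07 and -0.34 ± 0.07).

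The carriers fell furthest of the classes with heat, with 8 of 9 called lower in each genotype and a median of -2.14 in WT and -2.17 in *cry1*. Over all tested genes, 61.1% were called lower in WT and 72.9% in *cry1*, with medians of -0.86 and -1.24. *FD1* and *FD2* encode the leaf-type ferredoxins. *FD1* (AT1G10960) stood at 298, 364 and 357 CPM in WT and 257, 227 and 226 in *cry1* at 22°C, and at 514, 553 and 519 in WT and 706, 743 and 713 in *cry1* at 44°C. *FD2* (AT1G60950) stood at 1280, 1210 and 1261 CPM in WT and 1089, 981 and 941 in *cry1* at 22°C, and at 516, 505 and 521 in WT and 379, 371 and 375 in *cry1* at 44°C. *FD1* was the exception: each heated library lay above each unheated library, and at 44°C each *cry1* library lay above each WT library. It rose by 0.64 ± 0.08 in WT and 1.61 ± 0.08 in *cry1*, a difference of 0.97 ± 0.12 (adjusted p = 8.12e-06), and *cry1* differed from WT by -0.52 ± 0.08 at 22°C and 0.45 ± 0.08 at 44°C. *FD2* fell in both genotypes and was lower in *cry1* at 22°C (-0.32 ± 0.07) and 44°C (-0.45 ± 0.07).

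Plastocyanin, the lumenal carrier between the cytochrome complex and PSI, is encoded by *PETE1* and *PETE2*. *PETE1* (AT1G76100) stood at 143, 128 and 155 CPM in WT and 84.8, 97.6 and 108 in *cry1* at 22°C, and at 50.0, 61.7 and 67.3 in WT and 26.7, 27.2 and 25.9 in *cry1* at 44°C. *PETE2* (AT1G20340) stood at 4129, 4234 and 4161 CPM in WT and 2591, 2712 and 2723 in *cry1* at 22°C, and at 921, 978 and 950 in WT and 606, 562 and 614 in *cry1* at 44°C. *PETE2* held nearly all plastocyanin counts, and in *PETE1* the groups did not overlap in any comparison. *PETE1* had the lowest difference of *cry1* against WT of all members at 44°C (-1.17 ± 0.11, against -0.55 ± 0.10 at 22°C), and its heat response was lower in *cry1* than in WT by a log2 difference of -0.61 ± 0.15 (adjusted p = 0.00501), a call that was lost under median-ratio scaling. On the scale of library totals, *PETE2* was lower in *cry1* by nearly the same amount at 22°C (-0.64 ± 0.07) and 44°C (-0.68 ± 0.07). Under median-ratio scaling its heat response was called higher in *cry1*, so its gap to WT was then smaller at 44°C. The Rieske gene *PETC* was also called lower in *cry1* at both temperatures (-0.64 ± 0.08 and -0.36 ± 0.08 on library totals).

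*LFNR1* and *LFNR2* encode the leaf forms of FNR, and *ATPC1* and *ATPD* the gamma and delta subunits of the ATP synthase. *LFNR1* (AT5G66190) stood at 1071, 1113 and 1123 CPM in WT and 828, 816 and 834 in *cry1* at 22°C, and at 113, 142 and 140 in WT and 98.9, 98.0 and 95.1 in *cry1* at 44°C. *LFNR2* (AT1G20020) stood at 663, 802 and 736 CPM in WT and 605, 596 and 595 in *cry1* at 22°C, and at 138, 145 and 126 in WT and 89.4, 83.3 and 86.2 in *cry1* at 44°C. *ATPD* (AT4G09650) stood at 715, 735 and 723 CPM in WT and 477, 481 and 471 in *cry1* at 22°C, and at 68.9, 94.9 and 77.5 in WT and 62.2, 65.3 and 61.6 in *cry1* at 44°C. All libraries at 44°C stood far below those at 22°C in each of these genes. The heat difference was -3.07 ± 0.09 in WT and -3.08 ± 0.09 in *cry1* for *LFNR1*, -2.42 ± 0.08 and -2.79 ± 0.08 for *LFNR2*, and -3.17 ± 0.10 and -2.92 ± 0.09 for *ATPD*. The response of *LFNR2* was lower in *cry1* (-0.37 ± 0.11, adjusted p = 0.0185), but not without WT replicate 1 at 22°C (adjusted p = 0.0619), and the difference turned upward under median-ratio scaling. In *cry1* against WT, *ATPD* stood at -0.60 ± 0.09 at 22°C and -0.35 ± 0.09 at 44°C, and the call at 44°C was lost without WT replicate 2 (adjusted p = 0.0567). That of *ATPC1* at 44°C (-0.27 ± 0.08) was lost without WT replicate 2 (0.125) or *cry1* replicate 2 (0.0728) or 3 (0.0979).

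Several of these proteins are encoded by pairs of close paralogues, and the share of a gene in the summed counts of its pair does not depend on the scale of the library. These are shares of counts, not corrected for gene length. Over 9 pairs and 4 comparisons, the shares did not overlap between the groups in 27 of 36 tests. With 3 libraries against 3, the exact two-sided permutation test cannot go below p = 0.10, and the lowest value after Benjamini-Hochberg adjustment over the 36 was 0.133, so 0 of the 36 passed 0.05. *FD1* held 18.9, 23.1 and 22.1% of ferredoxin counts in WT and 19.1, 18.8 and 19.4% in *cry1* at 22°C, where the genotypes overlapped. At 44°C it held 49.9, 52.3 and 49.9% in WT and 65.1, 66.7 and 65.5% in *cry1*, so that it held most of the pair's counts in each heated *cry1* library. *PSAH1* went in share from 37.1, 39.4 and 37.4% to 69.4, 66.8 and 68.7% in WT and from 38.6, 37.9 and 37.7% to 75.1, 73.6 and 73.2% in *cry1*. *PSBQ1* went from 47.3, 47.5 and 47.8% to 25.1, 24.6 and 24.6% in WT and from 48.4, 46.2 and 47.1% to 19.8, 18.1 and 19.9% in *cry1*. In both pairs the genotypes overlapped at 22°C and lay apart at 44°C.

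*PSAE1* held 78.3% ± 1.05 in WT and 74.7% ± 0.187 in *cry1* at 22°C, and 57.0% ± 1.33 and 58.1% ± 0.770 at 44°C (SD, n = 3), and *PSAD1* held 66.4% ± 1.26 in WT and 71.5% ± 0.866 in *cry1* at 22°C, and 59.8% ± 1.46 and 60.3% ± 1.32 at 44°C. The share of *PSBO1* was 75.7% ± 0.244 in WT and 78.2% ± 1.02 in *cry1* at 22°C, and 86.5% ± 1.23 and 83.8% ± 0.611 at 44°C, so that its order between the genotypes was reversed at 44°C. For *LHCB4.1*, set against *LHCB4.2*, the values were 64.4% ± 2.11 in WT and 67.0% ± 2.74 in *cry1* at 22°C, and 59.2% ± 0.587 and 54.9% ± 1.32 at 44°C. *LFNR1* held 60.1% ± 1.85 in WT and 58.0% ± 0.349 in *cry1* at 22°C, and 48.9% ± 3.80 and 53.0% ± 0.904 at 44°C. Here the genotypes overlapped at each temperature, while the temperatures lay apart. *PETE1* held few of the plastocyanin counts throughout, at 3.29% ± 0.329 in WT and 3.48% ± 0.323 in *cry1* at 22°C, and 5.90% ± 0.736 and 4.3% ± 0.294 at 44°C.

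**Figure D5:**
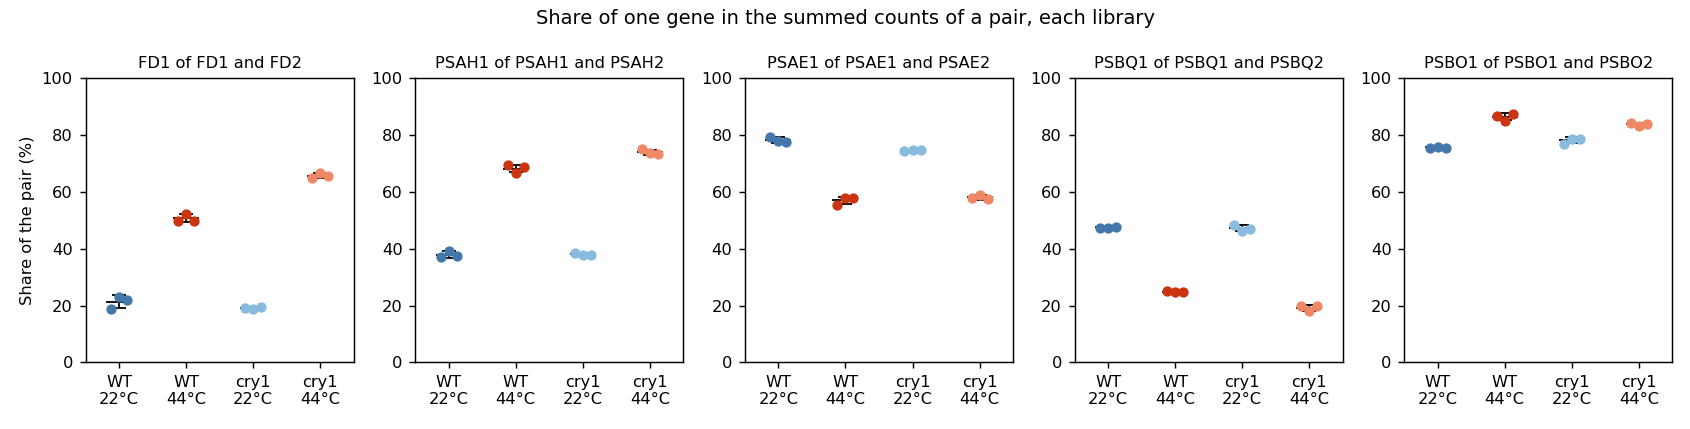
Share of the gene named first in the summed counts of its pair (y axis, percent, from 0 to 100) in the 4 groups, with 1 point per library and the mean ± SD of 3 libraries as bars. At 44°C *FD1* and *PSAH1* held more of their pair, and *PSAE1* and *PSBQ1* less, in each genotype; for *FD1* the share reached 65.8% in *cry1*.

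Other nuclear thylakoid genes were listed for comparison. Of 23 further genes for thylakoid proteins, 22 were tested. In *cry1* against WT at 22°C, 18 were lower, 1 higher and 3 not called, with a median of -0.48. At 44°C 16 were lower and 1 higher. All tested genes stood at 7.35% lower and 31.6% higher at 22°C, and at 17.3% and 8.64% at 44°C. Under median-ratio scaling 18 of the further genes were lower and 0 higher at 22°C. At 44°C 11 were then lower and 2 higher, beside 10.9% and 13.9% of all genes. With heat, 22 of 22 were called lower in each genotype, where 61.1% of all genes were in WT and 72.9% in *cry1*. Under median-ratio scaling 16 were lower and 4 higher in WT, and 12 were lower and 6 higher in *cry1*. *PSBS*, which encodes the PSII protein of energy dissipation, stood at 1663, 1719 and 1742 CPM in WT at 22°C and 41.3, 51.9 and 32.1 at 44°C, a log2 difference of -5.35 ± 0.13. Of 11 genes for assembly and targeting factors, 7 were lower in *cry1* at 22°C and 0 higher, and at 44°C 5 and 0. Under median-ratio scaling these counts were 11 and 0 at 22°C, and 5 and 0 at 44°C. With heat, 10 were lower and 0 higher in WT, and 10 and 1 in *cry1*. With median-ratio scaling 7 were lower and 2 higher in WT, and 5 were lower and 4 higher in *cry1*. All tested genes then stood at 35.6% lower and 34.4% higher in WT, and 36.4% and 35.2% in *cry1*.

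The 8 nuclear genes of the NDH complex, to which *LHCA5* and *LHCA6* are known to connect PSI, were all called lower with heat, with a median log2 difference of -3.98 in WT and -3.97 in *cry1*. On library totals, 61.1% of all tested genes were called lower in WT and 72.9% in *cry1*. On the median-ratio scale 7 of the NDH genes were lower and 0 higher in WT, and 7 were lower and 1 higher in *cry1*. All genes then stood at 35.6% lower in WT and 36.4% in *cry1*. *PNSB1*, an NDH subunit, stood at 268, 309 and 302 CPM in WT and 184, 180 and 174 in *cry1* at 22°C, and at 3.80, 4.09 and 3.27 and 4.46, 3.80 and 3.15 at 44°C. Its log2 heat difference was -6.29 ± 0.12 in WT, below that of any member. At 22°C, 5 of the 8 were lower in *cry1* and 0 higher, and at 44°C 1 and 0. Of all tested genes, 7.35% were lower and 31.6% higher at 22°C, and 17.3% and 8.64% at 44°C. With median-ratio scaling the NDH counts were 7 and 0 at 22°C, and 0 and 1 at 44°C. All genes then stood at 10.9% lower and 13.9% higher at 44°C. On library totals, the heat response was called higher in *cry1* than in WT for 2 NDH genes and lower for 0. The counts were 3 and 2 for the further thylakoid genes and 2 and 1 for the assembly factors. Of all tested genes, 3.88% were called higher and 24.2% lower. With median-ratio scaling 6 NDH genes, 16 further thylakoid genes and 6 assembly factors were called higher and 0 lower. All genes then stood at 11.5% higher and 5.35% lower.

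Among 5 transcription factors listed as regulators of photosynthesis genes, GLK1 and GLK2 are known activators of antenna genes, HY5 acts in light signalling, and GNC and CGA1 are GATA factors of greening. *GLK1* stood at 214, 223 and 200 CPM in WT and 238, 230 and 203 in *cry1* at 22°C, and at 98.6, 89.4 and 80.7 and 61.7, 58.1 and 62.8 at 44°C. *GLK2* stood at 221, 200 and 219 and 193, 202 and 182 at 22°C, and at 338, 289 and 285 and 237, 194 and 237 at 44°C. *GLK1* thus fell with heat in each genotype (-1.24 ± 0.09 in WT and -1.88 ± 0.09 in *cry1*), whereas *GLK2* was called higher in WT (0.51 ± 0.09). *HY5* stood at 24.0, 24.3 and 25.6 CPM in WT and 19.4, 19.2 and 17.6 in *cry1* at 22°C, and at 25.0, 35.6 and 26.6 and 49.7, 47.7 and 52.7 at 44°C. It was the regulator called lower in *cry1* at 22°C (-0.39 ± 0.11) and the one called higher at 44°C (0.78 ± 0.11). The other 4 were called lower at 44°C, *CGA1* furthest (-1.67 ± 0.20). Of all tested genes, 7.35% were called lower at 22°C, and 17.3% lower and 8.64% higher at 44°C. With median-ratio scaling 2 of the 5 were lower at 22°C, and 3 were lower and 1 higher at 44°C. With heat, 1 of the 5 was called higher and 1 lower in WT, and 2 and 3 in *cry1*. Of all tested genes, 15.3% were called higher and 61.1% lower in WT, and 11.3% and 72.9% in *cry1*. On the median-ratio scale 1 of the regulators was lower and 4 higher in WT, and 1 was lower and 3 higher in *cry1*. All genes then stood at 35.6% lower and 34.4% higher in WT, and 36.4% and 35.2% in *cry1*.

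Outside the members, *RBCS1A*, *RBCS3B*, *RCA* and *CA1*, genes of carbon fixation, were listed as markers of green tissue. Their transcript levels do not measure the amount of that tissue. All 4 were called lower in *cry1* at 22°C (median -0.56) and with heat in each genotype, and at 44°C 3 were lower in *cry1* and 1, *RCA*, higher (0.32 ± 0.08). Their summed level was 30515 to 31860 CPM in WT and 19998 to 21204 in *cry1* at 22°C. At 44°C it was 5167 to 6040 and 5039 to 5109. The 10 root markers, of root hairs and endodermis, summed to 103 to 145 CPM in WT and 86.1 to 145 in *cry1* at 22°C, and to 38.5 to 41.7 and 29.0 to 31.7 at 44°C, and 0 of the 10 were at 0 in any group. At 22°C 2 root markers were higher and 1 lower in *cry1*, beside 31.6% and 7.35% of all tested genes. With median-ratio scaling 0 were higher and 3 lower. With heat, 8 were lower and 1 higher in WT, and 9 and 0 in *cry1* (with median-ratio scaling, 7 were lower and 2 higher in WT, and 7 were lower and 1 higher in *cry1*), and at 44°C 3 were lower and 0 higher in *cry1*. The share of all tested genes called lower with heat was 61.1% in WT and 72.9% in *cry1*, or 35.6% and 36.4% with median-ratio scaling. At 44°C, 17.3% of all tested genes were called lower in *cry1* and 8.64% higher. With median-ratio scaling 0 root markers were called at 44°C, and 2 green tissue markers were lower and 1 higher. The part of a shift between green and root tissue in the results was not tested.

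The promoters of the members were searched for letters of known regulatory elements in the 250 bases before the annotated start, on both strands, and set beside the same window of 27443 protein-coding genes (RefSeq annotation, TAIR10.1). CCAATC, a sequence bound by GLK factors, was present in 14 of 51 (27.5%) members against 10.2% of all promoters. It was in 10 of 20 (50.0%) antenna promoters, 0 of 12 (0%) of PSI subunits, 1 of 10 (10.0%) of PSII subunits and 3 of 9 (33.3%) of the carriers. CACGTG, the G-box, was in 10 of 51 (19.6%) members against 6.49%, and GATAAG, the core of GATA elements, in 12 of 51 (23.5%) against 12.3%. AATATCT, the core of the evening element, was in 6 of 51 (11.8%) against 10.0%. A heat shock element of 3 units was in 0 of 51 (0%) against 0.386%. A match says only that the letters are there. The stretches around CCAATC in the 10 antenna promoters that hold it are shown because this motif was the most unevenly spread over the classes. Each is 30 bases, 5′ to 3′ on the strand of the gene, with the motif in capitals, and GATTGG is the motif on the opposite strand. For promoters with 2 matches, the match nearest the start is shown.
LHCB1.3 (chr1:10477782-10477811, plus strand, motif 91 bases before the start): gtgggtgtttcgCCAATCcatgaaacgcac
LHCB1.5 (chr2:14523640-14523669, minus strand, motif 89 bases before the start): aaatctcataagCCAATCactaaacagata
LHCB2.1 (chr2:1824522-1824551, minus strand, motif 59 bases before the start): ccacagccactaCCAATCttctattaggac
LHCB2.2 (chr2:1800508-1800537, minus strand, motif 53 bases before the start): ccacaaccattaCCAATCtcctcataggac
LHCB2.3 (chr3:10255840-10255869, plus strand, motif 54 bases before the start): atctaaaaccaaCCAATCtacactcgctga
LHCB4.1 (chr5:208819-208848, plus strand, motif 35 bases before the start): aaattatttgacCCAATCagattgtacctc
LHCB4.2 (chr3:2717469-2717498, plus strand, motif 76 bases before the start): agcttcttttgcCCAATCagcttgcttgcc
LHCA1 (chr3:20341280-20341309, minus strand, motif 121 bases before the start): ccggattcatgaCCAATCgcagatttaccg
LHCA3 (chr1:22699668-22699697, plus strand, motif 35 bases before the start): aaaatttgaactGATTGGgtataaaaagaa
LHCA4 (chr3:17495064-17495093, minus strand, motif 48 bases before the start): atcttattccgaCCAATCtcaaacaacatt
*LHCB2.1*, *LHCB2.2* and *LHCB2.3* hold it at nearly the same distance. Of the *LHCB1* genes, *LHCB1.3* and *LHCB1.5* hold it and *LHCB1.1*, *LHCB1.2* and *LHCB1.4* do not. In *cry1* against WT at 22°C, the log2 differences of the 10 antenna genes with these letters ran from -1.11 (*LHCB2.3*) to -0.31 (*LHCB1.3*), and those of the 10 without from -1.66 (*LHCB1.1*) to -0.33 (*LHCB1.2*), so the ranges overlapped.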

How the data were processed

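Expected counts per gene, which are estimated counts that need not be whole, had been deposited by the authors. The labels name polyA RNA, rRNA depletion and a stranded mRNA kit, while the methods name rRNA-depleted total RNA only. Per the methods, reads were trimmed and assigned to genes of TAIR10 with RSEM, which divides reads that fit several genes. The submitters' processing notes also name TopHat2 2.0.11. The counts were rounded to whole numbers here. The test took genes whose mean FPKM (counts per 1000000 and kilobase of exon) exceeded -5 on the log2 scale in every group, and was 1 fit of the 12 libraries and 4 groups with edgeR 4.0.16 (R 4.3.3; robust quasi-likelihood test, library totals as scale, Benjamini-Hochberg adjustment over 21307 genes, threshold 0.05, two-sided). The difference between heat responses was an interaction term. Exon lengths came from the RefSeq annotation of TAIR10.1, which named all 26891 genes. The common biological coefficient of variation was 0.103. Other scalings, DESeq2 1.42.0, other filters, a replicate block, fits of the compared groups only and leaving out each library in turn were the alternatives.

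Replicates are those the labels give, with no batch or date named. The members and gene lists were chosen with earlier results of these data known. Within a class and comparison, values for every sample were to be given for the genes with the highest and lowest difference, for members of paralogue pairs with shares that did not overlap between groups, and for members called opposite to most of their class. From other lists, at most 2 genes in each direction were to be named. Values beyond this rule were chosen after they were seen. Plastid genes were not analysed here.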

Additional observations from a re-analysis of the deposited data

Results flagged for a closer look

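The heat response of 17 members differed between the genotypes by the interaction test. The log2 response of *cry1* minus that of WT was 1.24 for *LHCB2.3*, 0.72 for *LHCB2.1*, 0.70 for *LHCB2.2*, 0.66 for *LHCB3*, 0.57 for *LHCB1.1* and 0.47 for *LHCB4.2* among the antenna genes. It was 0.97 for *FD1*, 0.94 for *PSBO2*, 0.56 for *PSAN*, 0.43 for *PSBO1*, 0.43 for *PSBQ2*, 0.37 for *PSBP1*, 0.36 for *PSAO* and 0.30 for *PSAE1* among the subunits and carriers. It was below 0 in 3 genes, at -0.61 for *PETE1*, -0.37 for *LFNR2* and -0.29 for *PSAH2*. The adjusted p-values lie close to the threshold for *PSAE1*, *PSAO* and *PSAH2*, whose calls were each lost without several single libraries, and for *LFNR2*, whose call was lost without WT replicate 1 at 22°C. The 3 genes below 0 were not called under median-ratio scaling.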

How the results depend on the processing

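The count of members called was computed under 8 other settings in the 4 comparisons and under 7 for the difference between responses, where the fit of the compared groups only does not apply. In *cry1* against WT at 22°C, the members called lower were 50 under all of them. The heat comparisons depended on the scale. In WT, 13 members were called higher under median-ratio scaling, TMM scaling and DESeq2, in place of 5. In *cry1*, 22, 22 and 23 were called higher in that order, in place of 5, and 22 lower under each, in place of 41. The difference between responses was then called higher in *cry1* for 40, 40 and 43 members, in place of 14, and lower for 0, 0 and 0, in place of 3. A scaling shifts all genes of a comparison by the same amount, and which scale is closer to the RNA content of the seedlings was not tested.

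The log2 ratio of the summed level of all members moved, under median-ratio and TMM scaling in this order, from -0.64 to 0.17 and 0.15 for heat in WT, from -0.36 to 0.84 and 0.81 for heat in *cry1*, from -0.60 to -0.85 and -0.83 for *cry1* against WT at 22°C and from -0.31 to -0.18 and -0.17 at 44°C. That of the antenna genes moved from -0.32 to 0.50 and 0.47, from -0.02 to 1.17 and 1.15, from -0.61 to -0.86 and -0.84 and from -0.31 to -0.18 and -0.17 in the same comparisons. With totals over genes that are not members, these ratios were -0.70, -0.38, -0.65 and -0.33 for all members and -0.38, -0.04, -0.66 and -0.33 for the antenna genes.

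Over all 51 members and 5 comparisons, 33 of 255 log2 differences changed sign under median-ratio scaling, 33 under TMM scaling and 35 with DESeq2. Under median-ratio scaling 8 of them were heat differences in WT, 17 in *cry1* and 8 differences between responses, with 0 in the genotype comparisons. The report gives 124 of the 255 as log2 values, of which 13 changed sign. Under median-ratio scaling, the heat difference in WT became 0.72 for *LHCA2*, 0.40 for *LHCB4.1*, 0.71 for *LHCB4.2*, 0.30 for *PSBO1*, 0.30 for *PSBQ2* and 0.46 for *PSBR*. In *cry1* it became 0.36 for *LHCB1.1*, 0.28 for *LHCB2.1*, 0.82 for *LHCB4.1*, 1.11 for *PSBO1* and 1.11 for *PSBQ2*. The difference between responses became 0.010 for *LFNR2* and 0.092 for *PSAH2*. Under TMM scaling, the values were 0.69 for *LHCA2*, 0.37 for *LHCB4.1*, 0.68 for *LHCB4.2*, 0.28 for *PSBO1*, 0.28 for *PSBQ2* and 0.43 for *PSBR* in WT, 0.33 for *LHCB1.1*, 0.26 for *LHCB2.1*, 0.79 for *LHCB4.1*, 1.08 for *PSBO1* and 1.08 for *PSBQ2* in *cry1* and 0.0069 for *LFNR2* and 0.090 for *PSAH2* for the difference between responses. With DESeq2 the 13 values were, at 2 decimals, those of median-ratio scaling.

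Leaving out each library in turn gave 3 to 5 members higher and 44 lower with heat in WT (3 without WT replicate 3 at 44°C), 5 to 6 higher and 41 lower in *cry1*, 0 higher and 49 to 51 lower in *cry1* against WT at 22°C, and 1 to 2 higher and 32 to 37 lower at 44°C (1 higher without WT replicate 1 or 3 or *cry1* replicate 2 at 44°C). The difference between responses was higher for 12 to 19 and lower for 1 to 4 (1 without WT replicate 1 at 22°C). For the paralogue shares, leaving out 1 library moved 9 of 36 differences by over 1.5 times, and 3 of these changed sign: *PSAD1* at 44°C (-0.296 to 1.31 percentage points, *cry1* minus WT) and *PSAH1* (-0.331 to 0.839) and *PSBQ1* (-0.850 to 0.222) at 22°C. All 9 were genotype comparisons in which the groups overlapped. With the replicate number as a block, the counts were 5 higher and 44 lower with heat in WT, 6 higher and 41 lower in *cry1*, 0 higher and 50 lower in *cry1* against WT at 22°C, 2 higher and 38 lower at 44°C and 14 higher and 2 lower for the difference between responses. Whether equal replicate numbers pair the libraries is not known. Deviations of same-numbered libraries from their group means correlated at -0.17 to 0.52 over 4574 genes. The highest values were those between WT and *cry1* at 22°C, 0.52 for replicate 3 and 0.28 for replicate 1, where replicate 2 gave -0.17. Libraries of unlike number in different groups were not compared in this way. Depth limits the lowest members, *LHCB4.3* and *LHCA6*, at 44°C.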
